A study of Drosophila melanogaster with 4 samples.

Results

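Peptidoglycan recognition proteins (PGRPs) and regulators of the Imd and Toll pathways were followed in salivary glands of Drosophila melanogaster. The 7 genes are PGRP-SA, PGRP-LB, PGRP-LC, PGRP-LF, pirk, Rel and nec. They were taken by their names in the deposited count table, and all 7 of the 7 names were found among its 9931 genes. The glands came from larvae in the third instar raised at 25 °C, with 2 libraries from wild type and 2 from JIL-1-/- larvae carrying the null mutation Z2, each made from total RNA. JIL-1 is a chromosomal kinase of histone H3 that marks open regions of polytene chromosomes. The strain behind the wild type, the sex of the larvae and the number of animals in a library are not given in the labels, so genotype and strain background cannot be told apart.

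PGRPs bind peptidoglycan of the bacterial cell wall. PGRP-LC, a receptor in the plasma membrane, senses the diaminopimelic acid type and activates the Imd pathway, which ends in cleavage of the NF-kappaB factor Relish, the product of Rel. PGRP-SA circulates in the haemolymph and, together with GNBP1, senses the lysine type and starts a protease cascade that activates Spätzle, the ligand of Toll. Several brakes act on these routes. PGRP-LB is an amidase that cuts peptidoglycan, PGRP-LF is a membrane protein that holds back PGRP-LC signalling, pirk separates the receptor from Imd, and the serpin encoded by nec inhibits the Toll-activating cascade at the protease Persephone. In larvae these genes are best known from fat body, haemocytes, gut and trachea.

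Library totals lay between 6222322 and 11369094 counts. JIL-1 itself had 597 and 608 counts in wild type against 449 and 660 in JIL-1 null, a log2 fold change of -0.61 ± 0.12 (adjusted p = 0.0147, edgeR), so the mutant libraries still held reads of the gene. Markers of the salivary gland, 12 genes led by the glue proteins, summed to between 344941 and 405305 CPM (counts scaled to library size) in every library. Within that sum 2 genes rose, the prolyl hydroxylase genes PH4alphaSG1 (17.6-fold) and PH4alphaSG2 (2.89-fold), and 2 fell, the glue gene Sgs1 (2.37-fold) and the transcription factor gene sage (1.46-fold). Over all tested genes 17.2% fell and 13.5% rose. Markers of other larval tissues were present too. The 12 fat body markers in the table summed to 58752 and 69690 CPM in wild type against 39483 and 39696 CPM in JIL-1 null. Of the 11 tested, 5 fell and 2 rose, so the list did not move as one. Lsp1gamma, 1 of the 2 that rose, went from 7.36 and 7.59 CPM in wild type to 3895 and 4774 CPM in JIL-1 null. Lsp1alpha overlapped between genotypes (log2 fold change -0.09 ± 0.13). The 10 haemocyte markers summed to 497 and 606 CPM in wild type against 172 and 189 CPM in JIL-1 null, and 4 of 6 tested fell. Most of that sum was nimC2. Hml, He, eater, nimC1 and Sr-CI of the same list had 4 to 23 counts in each wild-type library and 0 to 6 in each JIL-1 null library. By the authors' deposited ratios the haemocyte markers crq and Pxn moved less, at 0.852 and 0.739. Their false discovery rates there were 0.0551 and 0.191, which are not edgeR calls. In the edgeR fit of genes averaging at least 5 CPM, 3 haemocyte markers were tested and all 3 fell. Of the 12 midgut markers, summing to 102 and 475 CPM in wild type against 20.6 and 21.1 CPM in JIL-1 null, 5 of 7 tested fell, and in wild type they stood far higher in library 2. When either JIL-1 null library was left out, 2 genes fell in each of these 3 lists, and 2 midgut genes fell with limma-voom or without wild type library 2, against 9 without library 1. The gland markers had 11 calls without wild type library 1, 7 without library 2 and 2 without either JIL-1 null library. These sums fell in the same direction as most of the genes below, and their part in the results was not tested. In RNA from whole glands, fewer cells of a type and less RNA per cell cannot be told apart.

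All 7 genes passed the filter on low counts. In JIL-1 null, 4 of them fell (PGRP-SA, pirk, PGRP-LC and nec) and 3 did not pass the test (Rel, PGRP-LB and PGRP-LF). A call is an adjusted p under 0.05 in edgeR's quasi-likelihood test, adjusted over all 7958 genes tested. By that rule 30.7% of all genes were called in either direction and 17.2% were lower in JIL-1 null. The 7 genes had a median log2 fold change of -0.71, beside a median of 0.03 over all tested genes. Of the 7, 6 were below 0, beside 47.4% of all tested genes. The libraries of the 2 genotypes did not overlap, in one direction or the other, for 70.3% of all tested genes. All fold changes set JIL-1 null over wild type, errors of log2 fold changes are standard errors, and CPM are scaled with TMM factors.

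**Figure D1:**
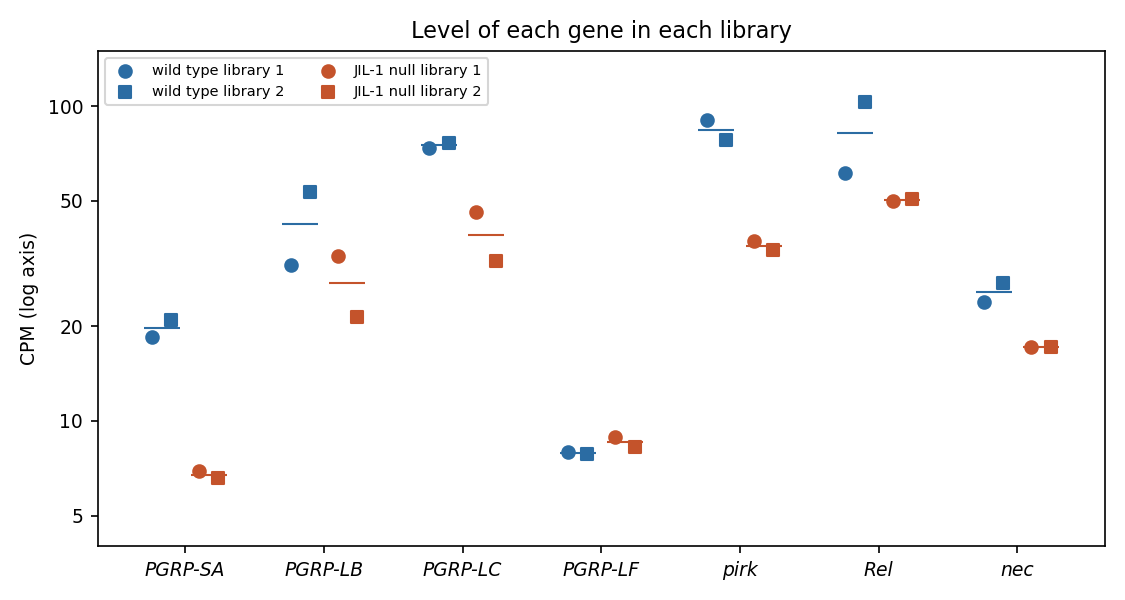
CPM of the 7 genes in each library on a log axis, with points for libraries and short lines for the mean of each genotype (n = 2). PGRP-SA, pirk, PGRP-LC, nec and Rel lie lower in both JIL-1 null libraries, PGRP-LB overlaps between genotypes, and PGRP-LF stays between 7.85 and 8.90 CPM. Of all tested genes, 70.3% did not overlap between genotypes, in one direction or the other.

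Among the recognition proteins, PGRP-SA changed most. Its counts were 118 and 165 in wild type against 56 and 78 in JIL-1 null. Scaled to library size, this was 18.5 and 20.9 CPM in wild type against 6.92 and 6.59 CPM in JIL-1 null. Both JIL-1 null libraries lay well below both wild-type libraries, and the libraries of a genotype lay close together. The mean fell 2.92-fold, from 19.7 ± 1.71 to 6.76 ± 0.235 CPM (SD, n = 2), with a log2 fold change of -1.54 ± 0.16 and adjusted p = 0.00180 in edgeR. The call held under all 12 alternatives, with adjusted p from 6.11e-06 to 0.0285. GNBP1, which encodes the partner of PGRP-SA in sensing, stood at 2.97 and 4.05 CPM in wild type and at 4.82 and 3.13 CPM in JIL-1 null. Its groups overlapped and it did not pass the test (log2 fold change 0.15 ± 0.35, adjusted p = 0.770 in edgeR); it is named here as the partner of PGRP-SA, after its values were seen.

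PGRP-LC, the membrane receptor of the Imd pathway, had 471 and 605 counts in wild type against 372 and 381 in JIL-1 null. These are 73.7 and 76.6 CPM against 46.0 and 32.2 CPM. The wild-type libraries were nearly equal, while the JIL-1 null libraries differed from each other but both lay lower. The level fell 1.93-fold, from 75.2 ± 2.02 to 39.1 ± 9.76 CPM (SD, n = 2), with a log2 fold change of -0.95 ± 0.17 (adjusted p = 0.0107, edgeR). Without JIL-1 null library 2 the log2 fold change was -0.73 and the call was lost (adjusted p = 0.0561), and its adjusted p spanned 8.97e-05 to 0.0561 among the alternatives. The annotation lists 10 transcripts for this gene, and counts per gene do not say which receptor isoform they come from.

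PGRP-LF, the inhibitory neighbour of PGRP-LC, had 51 and 62 counts in wild type against 72 and 98 in JIL-1 null. These were the lowest counts of the 7 genes in wild type, while in JIL-1 null PGRP-SA had fewer (56 and 78). The level of PGRP-LF was 7.98 and 7.85 CPM in wild type against 8.90 and 8.28 CPM in JIL-1 null. The JIL-1 null libraries stood slightly above the wild-type libraries with no overlap, a separation that 70.3% of all tested genes showed in one direction or the other. The log2 fold change was 0.12 ± 0.17 and did not pass the test (adjusted p = 0.649, edgeR). In the BDGP6 annotation PGRP-LF shares 602 of its 1355 exon bases with UGP, which encodes UDP-glucose pyrophosphorylase on the opposite strand. UGP stood at 268 and 264 CPM in wild type against 184 and 191 CPM in JIL-1 null, many times the level of PGRP-LF. Whether the counting used strand is not given in the sources used here, so reads of the 2 genes in the shared stretch cannot be told apart.

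The PGRP-LC and PGRP-LF genes lie next to each other, with PGRP-LA on the other side of PGRP-LC, all on the same strand. The share of PGRP-LF in the summed counts of PGRP-LC and PGRP-LF does not depend on scaling between libraries. It could include reads of UGP from the stretch shared with PGRP-LF, since use of strand is not given. It was 9.77% in wild type library 1 (51 of 522 counts, 95% exact interval 7.36% to 12.6%) and 9.30% in library 2 (62 of 667, 7.20% to 11.8%). In JIL-1 null it was 16.2% in library 1 (72 of 444, 12.9% to 19.98%) and 20.5% in library 2 (98 of 479, 16.9% to 24.4%). Both JIL-1 null shares lay above both wild-type intervals, which cover counting error only. The mean rose by 8.81 percentage points, from 9.53% ± 0.336 to 18.3% ± 3.00 (SD, n = 2). With 2 libraries against 2 an exact two-sided permutation test cannot go below p = 0.333, which is the value found.

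**Figure D2:**
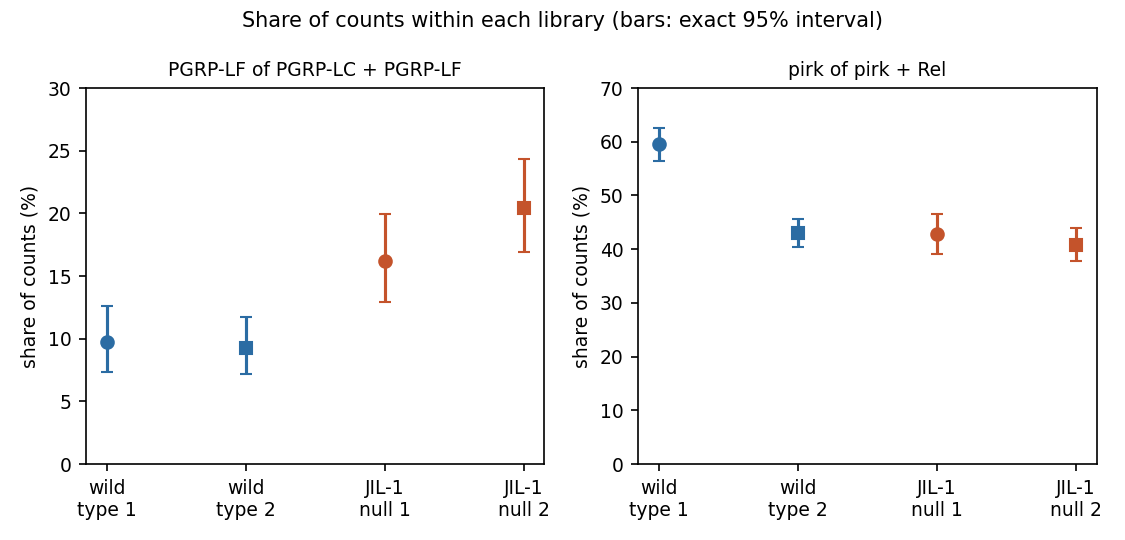
Share of counts of 1 gene in the sum of a pair, in percent, for each library with its exact 95% binomial interval. PGRP-LF takes 9.30% and 9.77% of the PGRP-LC and PGRP-LF counts in wild type against 16.2% and 20.5% in JIL-1 null, while the share of pirk against Rel differs most between the wild-type libraries. Counts of PGRP-LF could include reads of the overlapping gene UGP.

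PGRP-LB, the secreted and intracellular amidase, had 200 and 422 counts in wild type against 270 and 253 in JIL-1 null. These are 31.3 and 53.4 CPM against 33.4 and 21.4 CPM, so the genotypes overlapped. The libraries of each genotype differed by more than 1.5 times. The log2 fold change of -0.65 ± 0.30 did not pass the test (adjusted p = 0.152, edgeR). It passed when wild type library 1 was left out (log2 fold change -0.99, adjusted p = 0.0172), and was -0.21 when library 2 was left out (adjusted p = 0.589), the lowest and highest adjusted p of its alternatives. Leaving out JIL-1 null library 1 gave -0.98 and leaving out library 2 gave -0.37.

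The Imd inhibitor pirk had 576 and 616 counts in wild type against 302 and 412 in JIL-1 null, or 90.2 and 78.0 CPM against 37.3 and 34.8 CPM. Both JIL-1 null libraries lay at less than 0.5 times either wild-type library. The mean fell 2.33-fold, from 84.1 ± 8.62 to 36.1 ± 1.78 CPM (SD, n = 2), with a log2 fold change of -1.22 ± 0.12 (adjusted p = 0.00119, edgeR). The call held under all 12 alternatives, with adjusted p from 3.07e-10 to 0.0285.

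Rel had 392 and 814 counts in wild type against 404 and 598 in JIL-1 null. Its level was 61.4 and 103 CPM in wild type against 49.9 and 50.5 CPM in JIL-1 null. The JIL-1 null libraries agreed closely and lay below both wild-type libraries, which differed from each other by more than the nearer of them differed from JIL-1 null. The log2 fold change of -0.71 ± 0.23 did not pass the test (adjusted p = 0.0637, edgeR). It passed with DESeq2 (adjusted p = 0.0191), with the replicate number as a block (adjusted p = 0.0338) and without wild type library 1, where the log2 fold change was -1.04 (adjusted p = 0.000586). Without wild type library 2 it was -0.29 (adjusted p = 0.103). The highest adjusted p of its alternatives was 0.243, with JIL-1 null library 2 left out and a log2 fold change of -0.74. A gene on the same strand, Nmdmc, lies within the bounds of Rel in the annotation but shares 0 exon bases with it.

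The share of pirk in the summed counts of pirk and Rel was 59.5% in wild type library 1 (576 of 968, 95% exact interval 56.3% to 62.6%) and 43.1% in library 2 (616 of 1430, 40.5% to 45.7%). In JIL-1 null it was 42.8% (302 of 706, 39.1% to 46.5%) and 40.8% (412 of 1010, 37.7% to 43.9%). Wild type library 1 stood apart, and the intervals of the other 3 libraries overlapped. The mean was 51.3% ± 11.6 in wild type against 41.8% ± 1.40 in JIL-1 null (SD, n = 2), a difference of -9.51 percentage points that was -1.29 without wild type library 1 and -17.7 without library 2. The exact two-sided permutation test gave p = 0.333, again the smallest possible.

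The Toll-pathway serpin gene nec had 153 and 216 counts in wild type against 139 and 204 in JIL-1 null. Its level was 23.9 and 27.3 CPM in wild type and 17.2 CPM in each JIL-1 null library. The genotypes did not overlap, but the step was the smallest of the 4 called genes. The mean fell 1.49-fold, from 25.6 ± 2.40 to 17.2 ± 0.0371 CPM (SD, n = 2), with a log2 fold change of -0.58 ± 0.14 (adjusted p = 0.0285, edgeR). The call was lost with upper quartile scaling (log2 fold change -0.44, adjusted p = 0.0528), with DESeq2 (adjusted p = 0.0646), when wild type library 2 was left out (adjusted p = 0.0619) and when either JIL-1 null library was (adjusted p = 0.158 for library 1 and 0.175 for library 2). The lowest adjusted p over its alternatives was 0.0148, and all 12 gave a lower level in JIL-1 null.

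**Figure D3:**
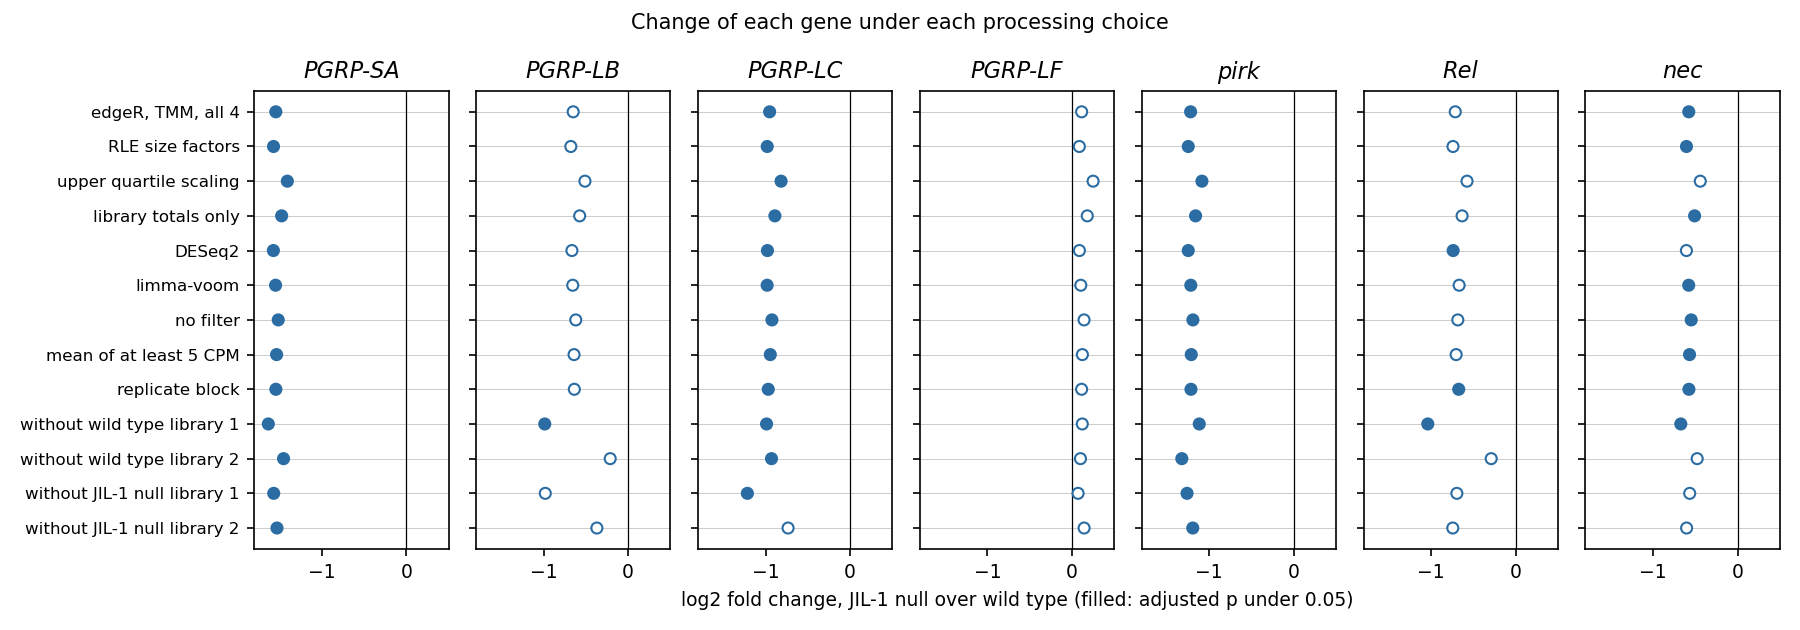
Fitted log2 fold change (JIL-1 null over wild type) of the 7 genes under the main fit and 12 alternatives, with filled points where the adjusted p is under 0.05. PGRP-SA and pirk are filled throughout, PGRP-LC and nec lose the call in 1 and 5 alternatives, and PGRP-LB and Rel shift with the wild-type library left out.

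In the authors' deposited table the same 4 genes had a false discovery rate under 0.05. The authors' ratio and false discovery rate were 0.372 and 0.00167 for PGRP-SA, 0.464 and 0.00183 for pirk, 0.563 and 0.0114 for PGRP-LC, and 0.727 and 0.0216 for nec. Rel, at 0.664, had a false discovery rate just above that limit in the authors' deposited table. PGRP-LB and PGRP-LF had 0.117 and 0.165 there. Of all genes listed there, 37.7% had a false discovery rate under 0.05.

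Levels of different genes can be set side by side only per length. On CPM per kilobase of merged exons, with lengths from the Ensembl annotation, pirk stood highest in wild type, at 48.8 and 42.2. PGRP-LB followed at 17.6 and 30.1, and Rel at 17.5 and 29.4. PGRP-LC was at 19.7 and 20.5 and PGRP-SA at 18.1 and 20.5. The ranges of these 4 genes overlapped. Next came nec at 14.7 and 16.7, and PGRP-LF was lowest at 5.89 and 5.79. In JIL-1 null pirk was still highest, at 20.2 and 18.9, but PGRP-LB reached 18.8 in library 1. How close pirk and PGRP-LB stand depends on the lengths used. PGRP-SA, at 6.80 and 6.47, overlapped there with PGRP-LF at 6.57 and 6.11. Of the 1355 exon bases of PGRP-LF, 602 are shared with UGP. How reads in that stretch were counted is not given, so the place of PGRP-LF in either genotype is uncertain.

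The authors' RPKM gave another order. In the authors' deposited table wild type stood at 64.2 for pirk, 16.8 for PGRP-SA, 15.3 for nec, 6.25 for Rel, 6.14 for PGRP-LB, 5.68 for PGRP-LF and 5.54 for PGRP-LC. The length behind each RPKM can be worked back from the counts. It came to 13266 bases for PGRP-LC, whose merged exons span 3743, to 12697 for Rel (3499) and to 6665 for PGRP-LB (1775). For nec and PGRP-LF, with 1 annotated transcript each, the length was 1631 and 1363 bases, close to the merged exons (1633 and 1355). For pirk it was 1286 bases, shorter than the merged exons (1846), and for PGRP-SA 1140 (1018). On the shorter length pirk would stand higher per kilobase than given above. Over 1018 genes with 5 or more annotated transcripts, this length was within 5% of the sum of all transcript lengths for 43.2% of genes and within 5% of the merged exons for 0.0982%. The low RPKM of PGRP-LC, Rel and PGRP-LB therefore goes with a length 3.54, 3.63 and 3.75 times their merged exons. Reads counted once per transcript would raise the counts of such genes too. In 399 genes with 2 transcripts that share at least 95% of exon bases, and with an RPKM length within 5% of the sum of both, such counting would give mostly even counts. Of their 590 values from 1 to 50 counts, 47.6% were even, beside 48.2% of 7800 in genes with 1 transcript. How reads were counted for PGRP-LC, Rel and PGRP-LB themselves is not given in the sources used here.

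**Figure D4:**
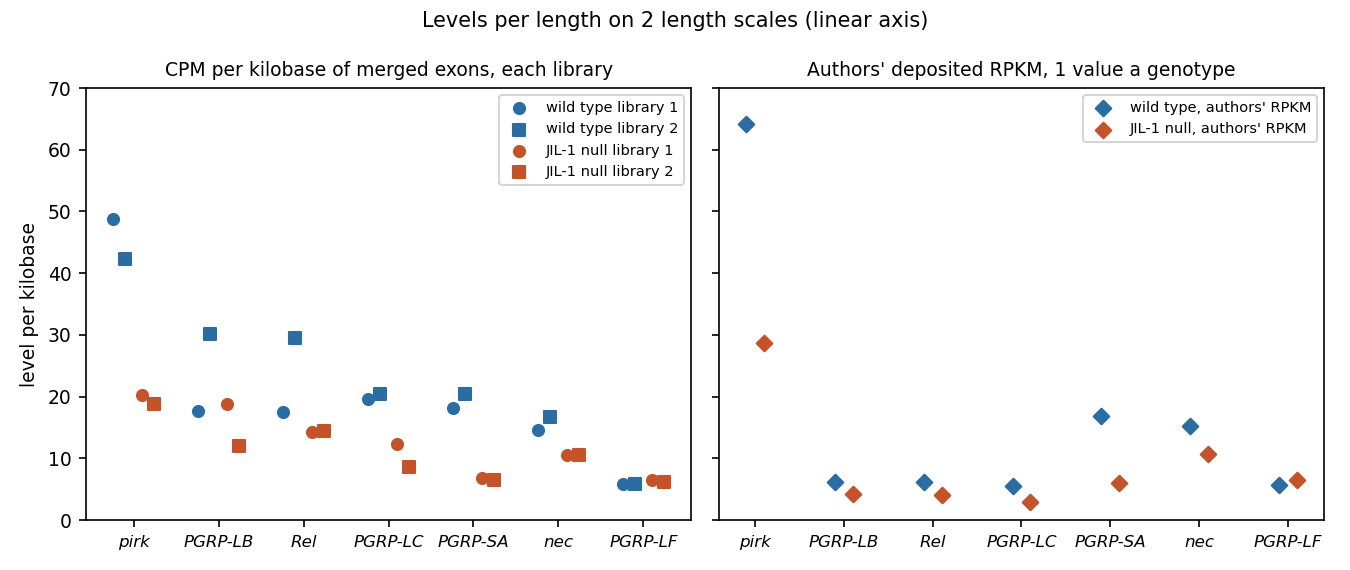
Left, CPM per kilobase of merged exons in each library; right, the authors' RPKM per genotype, both on the same linear axis. PGRP-LB, Rel and PGRP-LC lie between PGRP-SA and pirk or level with them on the left and below PGRP-SA and nec in wild type on the right.

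Other PGRP genes moved in both directions. Of 9 listed, 8 were in the table and 6 could be tested, of which PGRP-SD and PGRP-SB1 fell, PGRP-LA rose and 3 did not pass the test, with a median log2 fold change of -0.64. The 2 that fell are 33.3% of those tested, beside 17.2% of all genes, and 13.5% of all genes rose. PGRP-SD, a secreted protein that helps peptidoglycan sensing, was at 18.6 and 18.9 CPM in wild type against 9.27 and 6.84 CPM in JIL-1 null. PGRP-SB1, an amidase, was at 19.6 and 18.7 CPM against 8.90 and 10.7 CPM. Both were lower in each JIL-1 null library, with log2 fold changes of -1.23 ± 0.20 and -0.96 ± 0.17 (adjusted p = 0.00686 and 0.00978, edgeR). The call of PGRP-SD was lost when JIL-1 null library 2 was left out (adjusted p = 0.0561), that of PGRP-SB1 when library 1 was (adjusted p = 0.0694).

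PGRP-LA, the direct neighbour of PGRP-LC and a membrane protein that promotes Imd signalling in barrier tissues, stood at 42.3 and 38.9 CPM in wild type against 55.5 and 55.3 CPM in JIL-1 null. It was higher in both JIL-1 null libraries, opposite to PGRP-LC. Its log2 fold change was 0.45 ± 0.10 (adjusted p = 0.0185, edgeR). The call was lost with DESeq2 (adjusted p = 0.0873), when wild type library 2 was left out (0.0532) and when JIL-1 null library 1 or 2 was (0.142 and 0.183), and the lowest adjusted p was 0.00808. The 3 neighbours thus had fitted changes of 0.45, -0.95 and 0.12 in the order PGRP-LA, PGRP-LC and PGRP-LF.

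Of the PGRP genes that did not pass, the intracellular receptor gene PGRP-LE averaged 19.4 ± 2.61 CPM in wild type against 19.5 ± 0.779 CPM in JIL-1 null (SD, n = 2), with overlapping groups. PGRP-SB2 was the most abundant of the family, at 334 and 441 CPM in wild type against 281 and 338 CPM in JIL-1 null (log2 fold change -0.32 ± 0.17). The amidase gene PGRP-SC2 had 15, 23, 6 and 15 counts and a log2 fold change of -1.35 ± 0.46 (adjusted p = 0.0735, edgeR). PGRP-SC1a and PGRP-SC1b, near-identical copies between which reads can be split, were too low to test. PGRP-SC1a had 3 and 0 counts in wild type against 2 and 5 in JIL-1 null, and PGRP-SC1b 13 and 0 against 0 and 6. A count of 0 allows up to 0.380 CPM in wild type library 2 and 0.371 CPM in JIL-1 null library 1, taking 3 counts as the limit.

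Inside the cell, 12 other signalling genes of the Imd pathway were tested. Of these 1 fell, which is 8.33% beside 17.2% of all genes, and the median log2 fold change was -0.08. It was ben, which encodes a ubiquitin-conjugating enzyme, at 194 and 225 CPM in wild type against 147 and 151 CPM in JIL-1 null (log2 fold change -0.49 ± 0.11, adjusted p = 0.0240, edgeR). The call was lost without JIL-1 null libraries 1 and 2 in turn (adjusted p = 0.170 and 0.147). The adaptor imd itself stood at 29.2 CPM in wild type against 23.2 CPM in JIL-1 null (log2 fold change -0.33 ± 0.15, adjusted p = 0.152), and the caspase gene Dredd, which cleaves Relish, had -0.49 ± 0.16 (adjusted p = 0.0648). Both are named as core genes after their values were seen.

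Of 10 other Imd inhibitors tested, 3 fell, which is 30% beside the same 17.2%, with a median of -0.19. They were slmb and lin19, of a ubiquitin ligase that limits active Relish, and casp, which hinders Relish cleavage. Levels of slmb were 282 and 245 CPM in wild type against 118 and 133 CPM in JIL-1 null, a 2.10-fold fall (log2 fold change -1.07 ± 0.13, adjusted p = 0.00241, edgeR). The log2 fold changes of casp and lin19 were -0.57 ± 0.10 and -0.49 ± 0.10 (adjusted p = 0.00873 and 0.0160). Both calls were lost when a JIL-1 null library was left out, with adjusted p = 0.101 and 0.156 for library 1 and 0.0726 and 0.0917 for library 2. Of 5 genes of the JNK branch, 1 fell, which is 20% beside 17.2% of all genes. It was Jra, the fly Jun, which went from 111 and 143 CPM to 57.4 and 60.8 CPM (log2 fold change -1.10 ± 0.14, adjusted p = 0.00351).

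PGRP-SA and nec act in the extracellular part of the Toll pathway. Of 17 listed genes of ligand and protease cascade, 11 were tested and 7 fell, which is 63.6% of those tested beside 17.2% of all genes, and the median log2 fold change was -0.86. The protease gene spirit was at 56.8 and 71.3 CPM in wild type against 20.8 and 24.5 CPM in JIL-1 null. GNBP3, which senses fungal glucans, was at 88.6 and 117 CPM against 38.9 and 36.2 CPM, and the ligand gene spz at 184 and 216 CPM against 117 and 104 CPM. For all 3, both JIL-1 null libraries lay below both wild-type libraries. A separation in one direction or the other was shown by 70.3% of all tested genes. Their log2 fold changes were -1.50 ± 0.15, -1.46 ± 0.16 and -0.86 ± 0.13 (adjusted p = 0.00144, 0.00179 and 0.00534, edgeR), and spz had adjusted p = 0.0677 without JIL-1 null library 2. The other 4 that fell, named after their values were seen, are the protease genes grass (-1.30 ± 0.24), SPE (-1.14 ± 0.21), CG6361, now called Hayan (-1.05 ± 0.18), and psh, which encodes Persephone (-0.85 ± 0.15). This list had 3 calls when JIL-1 null library 1 was left out and 2 when library 2 was.

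From the receptor inwards, 13 Toll genes were tested, of which 2 fell and 1 rose, with a median of 0.03. The share that fell was 15.4% beside 17.2% of all genes, and 13.5% of all genes rose. Pli, which encodes the signalling adaptor Pellino, was at 63.9 and 73.5 CPM in wild type against 32.3 and 29.3 CPM in JIL-1 null (log2 fold change -1.16 ± 0.12, adjusted p = 0.00146, edgeR). The receptor gene Tl had a log2 fold change of -0.45 ± 0.13 (adjusted p = 0.0401), and was called in only 4 of 12 alternatives, with adjusted p from 0.0255 to 0.255. The NF-kappaB gene dl rose from 33.2 and 34.8 CPM to 60.9 and 52.0 CPM (log2 fold change 0.73 ± 0.12, adjusted p = 0.00684), and missed the threshold without JIL-1 null library 1 (adjusted p = 0.0714). The related gene Dif, named after its values were seen, was at 10.9 CPM in wild type against 12.4 CPM in JIL-1 null and did not pass (adjusted p = 0.401).

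**Figure D5:**
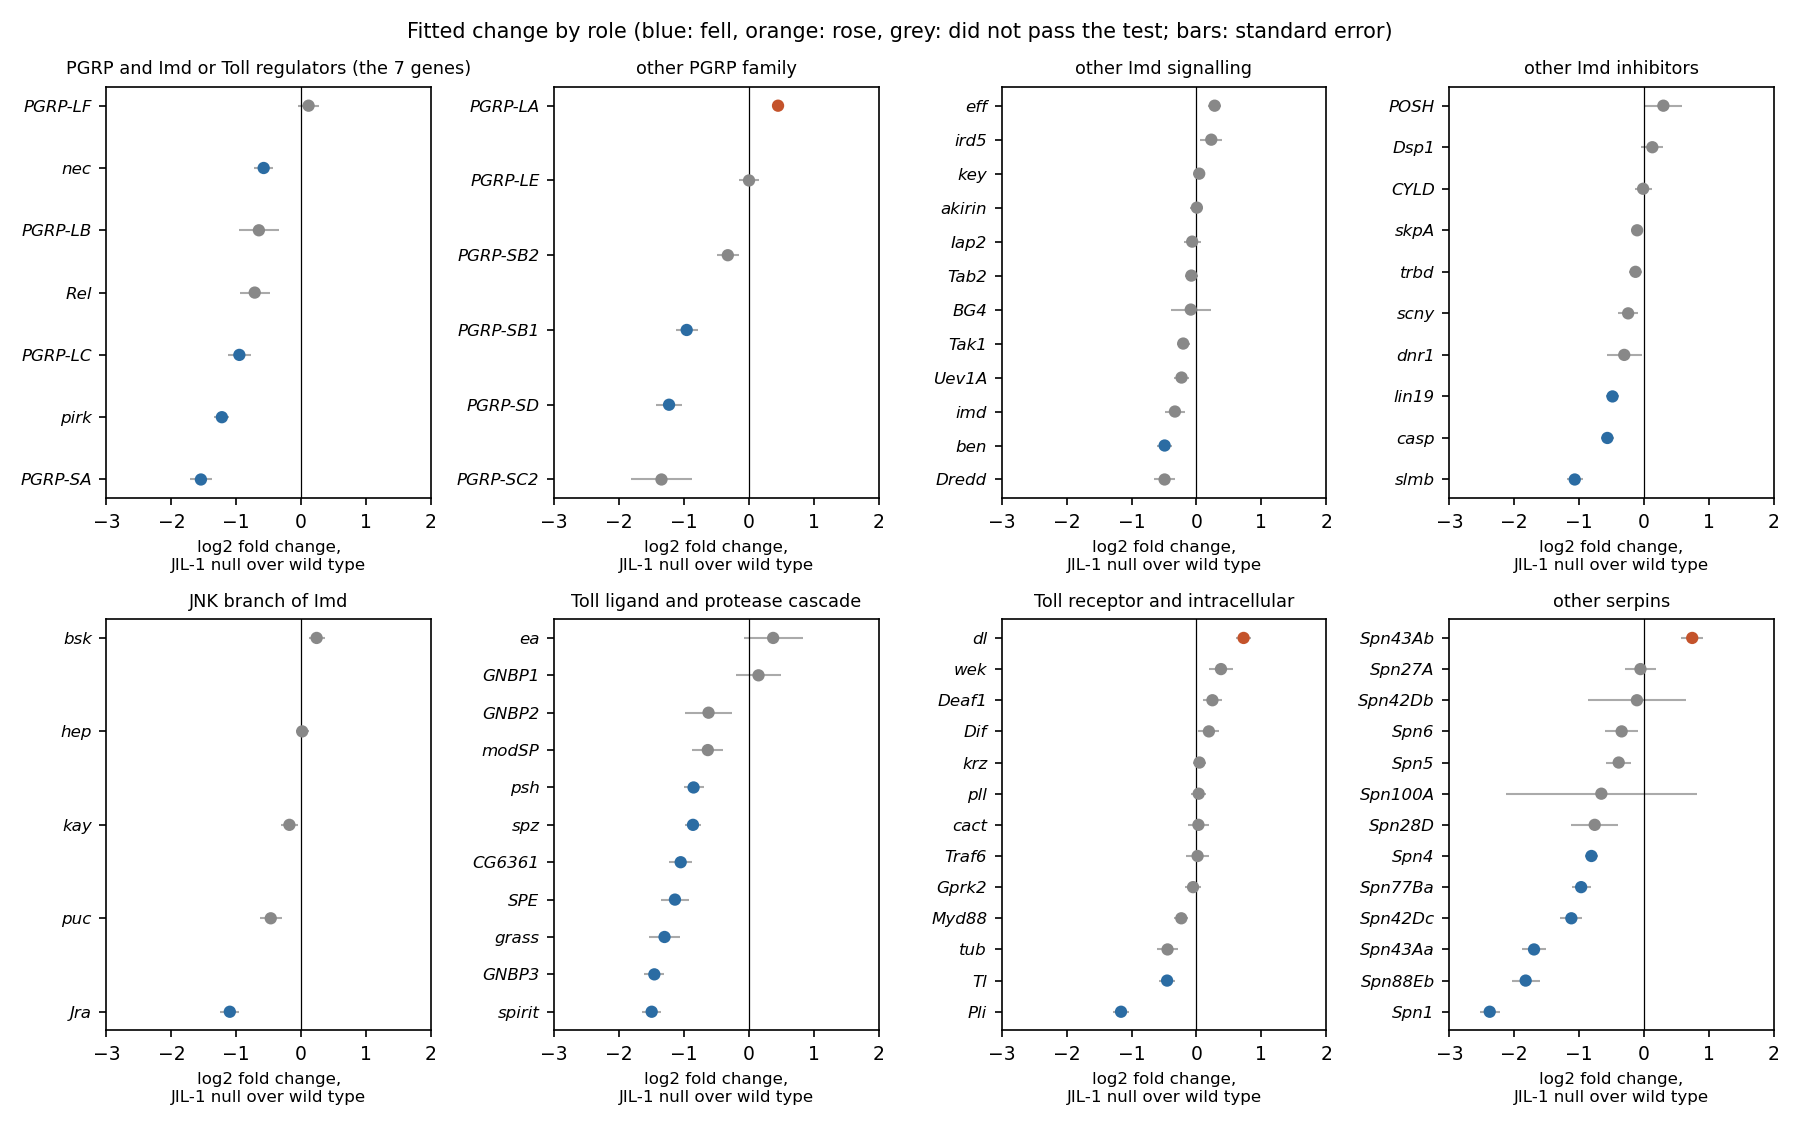
Fitted log2 fold change (JIL-1 null over wild type) with its standard error for every tested gene of 8 lists, one panel a list, coloured by whether the gene fell, rose or did not pass the edgeR test. Of the Toll ligand and protease cascade 7 of 11 genes fell, of the other serpins 6 of 13 fell and 1 rose, and of the other Imd signalling genes 1 of 12 fell. Over all tested genes 17.2% fell and 13.5% rose.

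Serpins are protease inhibitors, and nec lies in a group of serpin genes with Spn43Aa, Spn43Ab and Spn43Ad. Of 27 other serpins listed, 16 were in the table and 13 could be tested, of which 6 fell and 1 rose, with a median log2 fold change of -0.76. The share that fell was 46.2% of those tested, beside 17.2% of all genes, and 13.5% of all genes rose. Spn43Aa was at 19.9 and 19.2 CPM in wild type against 6.92 and 5.24 CPM in JIL-1 null, and Spn43Ab at 11.9 CPM in each wild-type library and at 17.9 and 21.8 CPM in JIL-1 null. Serpin genes of this one group thus moved in opposite directions, at -1.70 ± 0.19 for Spn43Aa, -0.58 ± 0.14 for nec and 0.74 ± 0.17 for Spn43Ab. The adjusted p of Spn43Aa was 0.00214 in edgeR and that of Spn43Ab 0.0223, the latter lost with DESeq2 (adjusted p = 0.0611) and when JIL-1 null library 2 was left out (0.167). Spn1, now called Spn42Dd, had the largest change of the list, from 28.6 and 28.4 CPM to 5.44 and 5.49 CPM (log2 fold change -2.38 ± 0.15, adjusted p = 0.000447). Spn88Eb had -1.82 ± 0.22 and adjusted p = 0.00255.

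Among the targets of both pathways, 20 antimicrobial peptide and immune-induced genes were tested, of which 7 rose and 5 fell (median log2 fold change -0.73). The 5 that fell are 25% of those tested, beside 17.2% of all genes, and 13.5% of all genes rose. The balance of 7 rises and 5 falls was not stable. Without wild type library 2, 3 rose and 8 fell, without JIL-1 null library 2, 2 rose and 3 fell, and with limma-voom 3 rose and 4 fell. The diptericin gene DptB, a Relish target, fell from 58.7 and 43.3 CPM to 11.9 and 18.9 CPM, whereas the cecropin gene CecC rose from 12.5 and 14.8 CPM to 95.9 and 84.2 CPM. By log2 fold change, IM3 (2.43 ± 0.36) and IM23 (5.73 ± 0.96) also rose, while AttD (-5.55 ± 0.69) and dro5 (-1.65 ± 0.39) also fell. Their adjusted p were 0.00558, 0.00796, 0.00286 and 0.0239 in edgeR. The wild-type level of IM23 was only 0.126 in the authors' RPKM. With limma-voom the call of AttD was lost (adjusted p = 0.0517). IM3, IM23 and dro5 did not keep their calls in every fit with a library left out. Without JIL-1 null library 2 their log2 fold changes were 1.99, 4.83 and -1.28, and dro5 had -1.14 without wild type library 2.

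The genes nearest to each called gene were sought over the 4 libraries by distance between log2 CPM centred per gene, among 3453 named genes averaging 5 CPM or more. They were Cyp4e2 and RhoL for PGRP-SA (distances 0.0442 and 0.0912), shd and serp for PGRP-LC (0.0647 and 0.0672), Psf1 and bip1 for pirk (0.0383 and 0.0957), and Tequila and Hmt4-20 for nec (0.0406 and 0.0454). The closest, Psf1, stood at 9.70 and 8.48 CPM in wild type against 3.96 and 3.55 CPM in JIL-1 null. With 4 libraries in 2 groups such a distance mostly reflects the size of the step between genotypes.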

How the data were processed

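Salivary gland RNA was sequenced in 2 wild-type and 2 JIL-1 null libraries, and 1 deposited table was used. The deposited table holds whole-number counts per gene for each library. The authors' deposited RPKM (1 value per genotype), ratio, p-value and false discovery rate are given only as the authors' values. Reads were aligned with GSNAP, and BDGP5 and dm3 are the builds named, per the submitters' processing notes. Sources used here do not give the counter, annotation, use of strand or the authors' test. No coordinates are printed, since the annotation used here (Ensembl release 115, BDGP6) is of another build. It served for symbols, neighbours, overlaps and exon lengths.

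The test was edgeR 4.0.16 under R 4.3.3 (glmQLFit and glmQLFTest, two-sided, TMM factors), with standard errors from the F statistic. The filterByExpr function (count minimum 10 in 2 libraries, total minimum 15) kept 7958 genes. Benjamini-Hochberg adjustment ran over all of them. Alternatives were RLE, upper quartile or no scaling factors, DESeq2 1.42.0, limma-voom (limma 3.58.1), no filter, a mean of at least 5 CPM, a replicate block and each library left out. In simulated data for these 7958 genes, 100 were changed 2-fold and 100 were changed 4-fold. The edgeR procedure recovered 59% at a 2-fold change and 93% at a 4-fold change, with 0 called in the wrong direction. A far larger share of genes was called in the real data (30.7%), so these rates need not hold there. The libraries of a genotype differed by more than counting noise (chi-square per degree of freedom 23.4 in wild type, 9.17 in JIL-1 null), so no pair was 1 library deposited again. This does not show that they are biological replicates. The labels do not say that they came from separate animals, so p-values measure the spread between these libraries, which may be technical.

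The genes and lists were chosen with earlier results of these data known. The naming rule took all 7 genes, up to 3 higher and 3 lower called genes of each list by smallest adjusted p (the 2 most abundant where none was called), the 2 nearest genes to each called one, and PGRP genes too low to test.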

Additional observations from a re-analysis of the deposited data

How the results depend on the processing

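Under the 12 alternatives, the 31 genes that the naming rule selects among tested list members kept their direction in every fit. Of 371 fitted values, 332 stayed on the same side of the threshold, 35 lost the call and 4 gained it. With single libraries left out in turn, the number of genes called ran from 719 to 2798 (2446 with all). The 7 genes gave 2 to 6 calls, other PGRP genes 1 to 4, Imd signalling 0 to 2 (0 in edgeR for either JIL-1 null library left out, where 2 and 1 genes had an unadjusted p under 0.05), Imd inhibitors 1 to 5, the JNK branch 1 to 2, the Toll cascade 2 to 7, Toll from the receptor inwards 1 to 3, serpins 4 to 9 and antimicrobial peptides 5 to 13. Where a genotype is left with 1 library, it is assumed to vary like the other genotype. Imd signalling had 2 calls with RLE or upper quartile scaling, and antimicrobial peptides 7 with limma-voom. Upper quartile scaling shifted the median over all genes from 0.03 to 0.17 (log2) and the share of called genes that were higher from 44.0% to 59.4%. By length of merged exons, an alternative added after seeing the data, the rank of the wild-type level changed for PGRP-SA from 2 to 5, PGRP-LB from 5 to 2, PGRP-LC from 7 to 4, PGRP-LF from 6 to 7, Rel from 4 to 3 and nec from 3 to 6. With replicate numbers as a block, 2261 genes and 5 of the 7 were called, the fifth being Rel. Libraries of the same number did not deviate together (r = -0.05 over 7958 genes), and the labels do not say what a number stands for. Other alternatives for these counts stayed within 1.5 times. The 51 counts of PGRP-LF in wild type library 1 set the lowest depth behind any of the 7 genes.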

Other observations

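In the authors' deposited table the false discovery rate of a gene is often smaller than its p-value. For PGRP-LF the deposited p-value is 0.243 and the false discovery rate 0.165, and for PGRP-LB they are 0.149 and 0.117. This holds for 5707 of 9931 genes (57.5%), and the highest false discovery rate in the table is 0.425. A Benjamini-Hochberg value is never below its p-value. The method behind the deposited rates is not given in the sources used here.

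Nmdmc, a mitochondrial folate enzyme gene within the bounds of Rel on the same strand, was at 18.6 and 18.9 CPM in wild type and 8.65 and 7.10 CPM in JIL-1 null, with a log2 fold change of -1.26 (adjusted p = 0.00405, edgeR). Its wild-type libraries were alike, while those of Rel were 61.4 and 103 CPM.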
